A study of Rattus norvegicus with 2 samples.

Results

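The genes described here encode the machinery that fuses secretory vesicles and granules with their target membrane, namely SNARE proteins, synaptotagmins, Munc13 and Munc18 proteins and their regulators. Their transcripts were counted by RNA sequencing in the line RBL-2H3, derived from a rat basophilic leukemia and used as a model of mast cells and basophils because it carries the high-affinity IgE receptor and releases its granules when that receptor is engaged. The data were 1 library of wild-type cells with no treatment, with 20917968 counted reads, and 1 library of wild-type cells incubated with IgE, with 26268330. The labels give no dose, time or antigen, and RBL-2H3 is a single tumour-derived line. Members were chosen by gene symbol alone (names beginning with Stx, Stxbp, Vamp, Snap, Syt, Sytl, Unc13, Cplx or Scamp and a number or letter, with Nsf, Napa, Napb and Napg), which gave 45 of 14913 distinct gene names. The RefSeq gene table of build GRCr8 holds 75 symbols of this form, and the other 30, among them Snap23, Snap25, Stx1a and Unc13b, were not analysed here.

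As background, membrane fusion is driven by SNAREs, proteins whose helices zip together across a pair of membranes. A vesicle SNARE (a VAMP) pairs with a syntaxin and a SNAP-25-type protein on the target membrane. Munc18 proteins hold and template the syntaxin, Munc13 proteins prime the complex, synaptotagmins and complexins couple fusion to calcium, and the ATPase NSF with its attachment proteins takes spent complexes apart. In mast cells, granule release is known to use syntaxin 3 and 4, SNAP-23, VAMP7 and VAMP8, Munc18-2 and Munc13-4.

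Both libraries carried mast cell and basophil transcripts. Of 14 mast cell and basophil markers 9 were counted, all with 20 or more reads, and their summed level was 8024 CPM (reads scaled to a common library size) without and 8325 CPM with IgE. The granule genes Tpsab1, Tpsb2, Mcpt2, Mcpt8 and Prg2 were not analysed here. Single markers went both ways, 6 higher and 3 lower with IgE, with log2 folds (IgE over untreated) from -0.15 (Rab27b) to 0.34 (Fcer1a). Of 19 markers of neurons and neuroendocrine cells, which share many exocytosis genes, 6 were counted, with a summed level of 120.8 and 114.9 CPM. Most of that came from Sv2a, a vesicle glycoprotein, with 2282 and 2687 reads. Map2 had 101 and 128 reads and Syn1 97 and 120. Syp, the synaptophysin gene, had 37 and 47 reads, Tubb3, neuronal tubulin, 15 and 22, and Chga, chromogranin A, 2 and 4.

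The comparison asked which of these transcripts differ after incubation with IgE. Transcripts of the machinery stood at nearly the same level in both libraries. Together the 45 genes held 0.340% of all reads without and 0.330% with IgE, or 3393 and 3313 CPM. Of the 45, 44 had 20 or more reads over both libraries and were given a ratio. Of these, 0 were at least 2-fold higher in the IgE library and 2, Syt2 and Stxbp5l, at least 2-fold lower, while 42 lay between. Over all 12102 genes with 20 or more reads, 1.33% lay at least 2-fold above and 1.3% at least 2-fold below the untreated library. The median log2 fold (IgE over untreated) of the 44 genes was -0.03, against 0.00 for all genes. In bulk RNA a difference in the number of cells of a type and a difference in RNA per cell cannot be told apart.

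With 1 library per condition no test across samples was possible. Each fold therefore carries an exact 95% interval of the read ratio, which covers counting error only and no variation between cultures. This interval lay wholly above 0 for 8 of the 44 genes, against 20% of all genes, and wholly below 0 for 9, against 18.6%. As a group the exocytosis genes were thus about as often outside counting error as all genes, without matching for depth. The median was 1904 reads over the 45 members and 812 over all 14913 names, and more reads give narrower intervals. The log2 folds of the 20 members with 2000 or more reads had an SD of 0.15, against 0.14 over all 5079 genes at that depth. Those of the 20 members ran from -0.24 to 0.27. At 500 or more reads the order was the other way, with an SD of 0.15 over 32 members and 0.17 over 8369 genes.

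**Figure D1:**
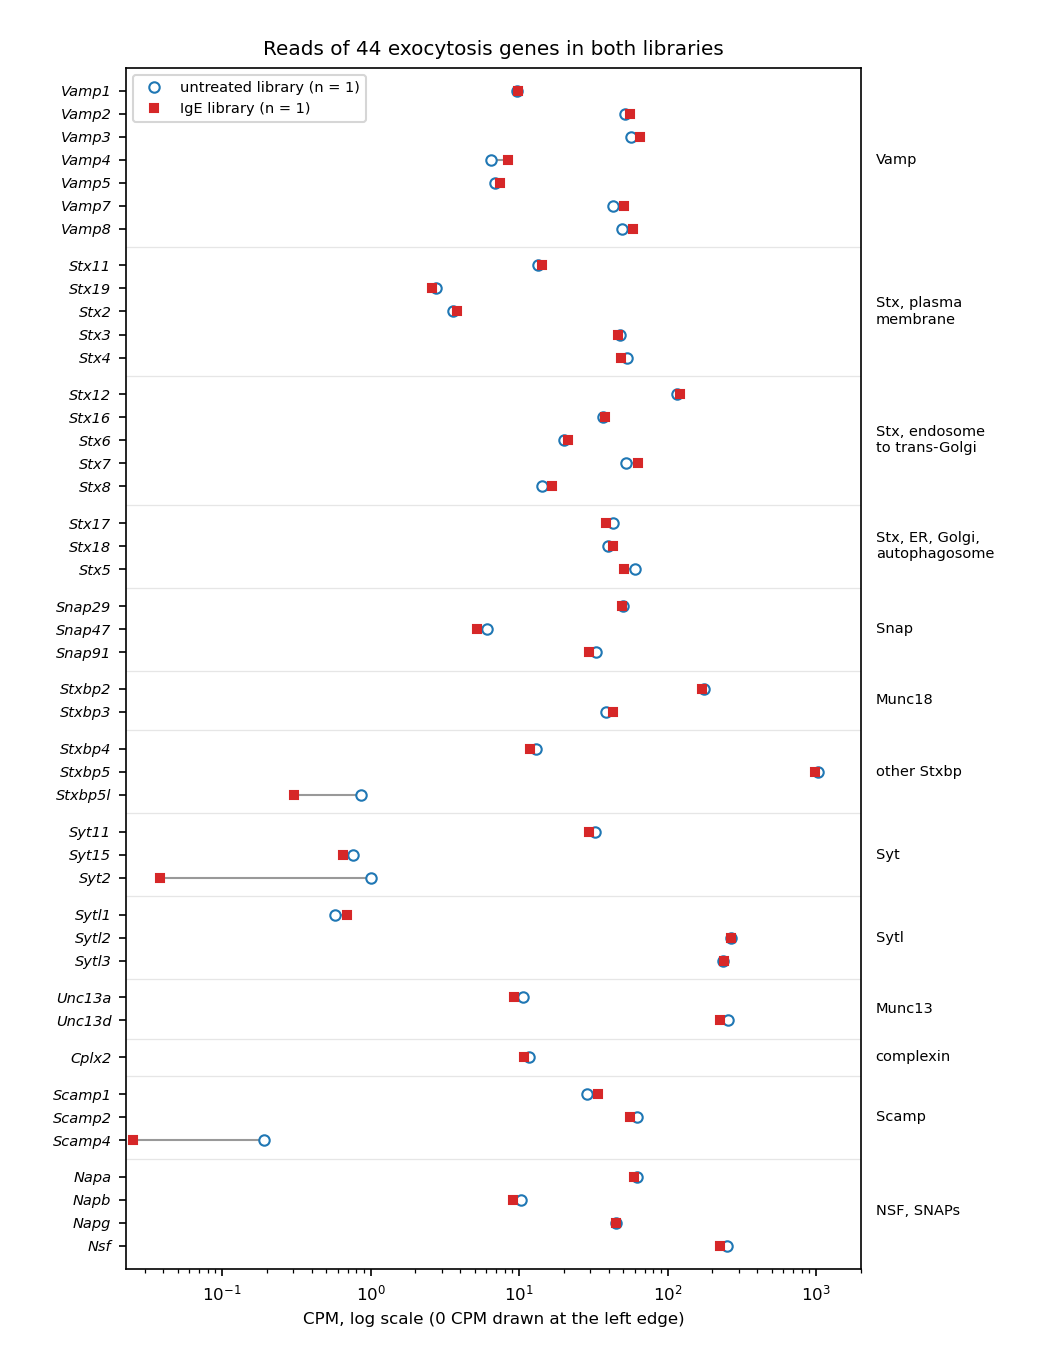
Level of 44 of the 45 genes, grouped by role, in the untreated library (open circles) and the IgE library (squares), in CPM on a log scale, 1 library each. The symbols nearly coincide for most genes, and the widest gaps are at Syt2, Stxbp5l and Scamp4, which had 22, 26 and 4 reads in all. CPM is not divided by transcript length, so levels of different genes should not be compared.

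Of the vesicle SNAREs, Vamp3, Vamp4, Vamp7 and Vamp8 were higher in the IgE library beyond counting error. Of 7 counted VAMP genes, 7 had a log2 fold above 0, with a median of 0.21, and for 4 the interval excluded 0. Over all genes, 51.1% had a log2 fold above 0, and for 20% the interval lay above 0. None of the VAMPs came near 2-fold.

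Vamp8, the endosomal and granule VAMP known for its part in mast cell and platelet secretion, had 1028 reads untreated and 1538 with IgE, or 49.0 and 58.7 CPM. Its log2 fold was 0.26 (interval 0.15 to 0.38), a 1.20-fold difference. Vamp7, a lysosomal VAMP with a regulatory longin domain, had 903 and 1330 reads (43.0 and 50.8 CPM, log2 fold 0.24, interval 0.12 to 0.36). The intervals of Vamp8 and Vamp7 overlapped over most of their width.

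Vamp3, or cellubrevin, the VAMP of recycling endosomes, had 1187 and 1708 reads (56.6 and 65.2 CPM, log2 fold 0.21, interval 0.10 to 0.31). Vamp4, a VAMP of the trans-Golgi network and endosomes, had 135 and 219 reads (6.43 and 8.36 CPM) and the highest log2 fold of all 44 genes, 0.38, with a wide interval of 0.06 to 0.70. Vamp2, the synaptobrevin of synaptic vesicles that is also present on other secretory vesicles, had 1082 and 1455 reads (log2 fold 0.11, interval -0.01 to 0.22). For this gene counting error alone does not separate the libraries, and the same holds for the next pair. Vamp5, known from muscle, had 145 and 195 reads (0.11, -0.21 to 0.43), and Vamp1, the other synaptobrevin, 203 and 258 (0.03, -0.24 to 0.30). Vamp5 and Vamp8 are neighbouring genes in the RefSeq annotation of GRCr8, and their intervals overlapped.

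A shift of this size was not limited to VAMPs. Of 65 cytosolic ribosomal protein genes 64 were above 0, with a median log2 fold of 0.29. Across 7809 genes with 500 or more reads and a RefSeq gene span, the log2 fold was weakly related to that span (Spearman's rho -0.26), with a median of 0.07 in the 1562 shortest and -0.04 in the 1562 longest genes. These genes share both libraries, genes are not independent replicates, and a span with introns is not a transcript length. Among the 32 exocytosis genes at this depth rho was 0.04. The part of such shifts in the VAMP values was not tested.

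The 13 syntaxin genes were grouped by compartment. Of 5 syntaxins of endosomes, lysosomes and the trans-Golgi network, 5 were above 0 (median log2 fold 0.09), and for 2 the interval excluded 0. The shares over all genes were 51.1% above 0 and 20% with the interval above 0, and 5 genes are few to set against them. Stx7, a late endosomal syntaxin, had 1103 and 1663 reads, or 52.6 and 63.5 CPM (log2 fold 0.27, interval 0.16 to 0.38), the second highest fold of the whole set. Stx8, which forms a late endosomal SNARE complex with Stx7 and Vamp8, had 298 and 432 reads (0.22), with a lower bound of 4.5e-05 that touched 0. With library totals or DESeq2 size factors as the scaling the Stx8 interval held 0, which left Stx7 alone. Stx12 (2423 and 3179 reads), Stx6 (420 and 559) and Stx16 (771 and 989), which serve recycling endosomes and retrograde traffic to the trans-Golgi network, had log2 folds of 0.07, 0.09 and 0.04, and each interval held 0.

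The syntaxins of the plasma membrane were level or slightly lower. Of 5, 2 were above and 3 below 0, with a median log2 fold of -0.04. Stx4, the widely expressed plasma membrane syntaxin, had 1120 and 1260 reads, or 53.4 and 48.1 CPM (log2 fold -0.15, interval -0.27 to -0.03). Stx3, its counterpart on apical and granule membranes, had 1004 and 1217 reads, or 47.8 and 46.5 CPM (-0.04, -0.16 to 0.08). The higher raw read number of both genes in the IgE library comes with its larger read total. Stx11, a syntaxin of cytotoxic and other blood cells, had 282 and 370 reads (0.07), Stx2 75 and 100 (0.10), and Stx19, which lacks a membrane anchor of its own, 58 and 68 (-0.09). All intervals of these last genes held 0.

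The remaining syntaxins act earlier in the secretory pathway or in autophagy. Stx5, the syntaxin of transport from the endoplasmic reticulum through the Golgi, had 1258 and 1331 reads, or 59.9 and 50.8 CPM. Its log2 fold of -0.24 (interval -0.35 to -0.13) was the lowest of any member with 100 or more reads. Stx17, the syntaxin of autophagosomes, had 903 and 1001 reads (-0.17, -0.30 to -0.04). Stx18, which serves retrograde transport to the endoplasmic reticulum, had 830 and 1116 (0.11, -0.02 to 0.24).

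**Figure D2:**
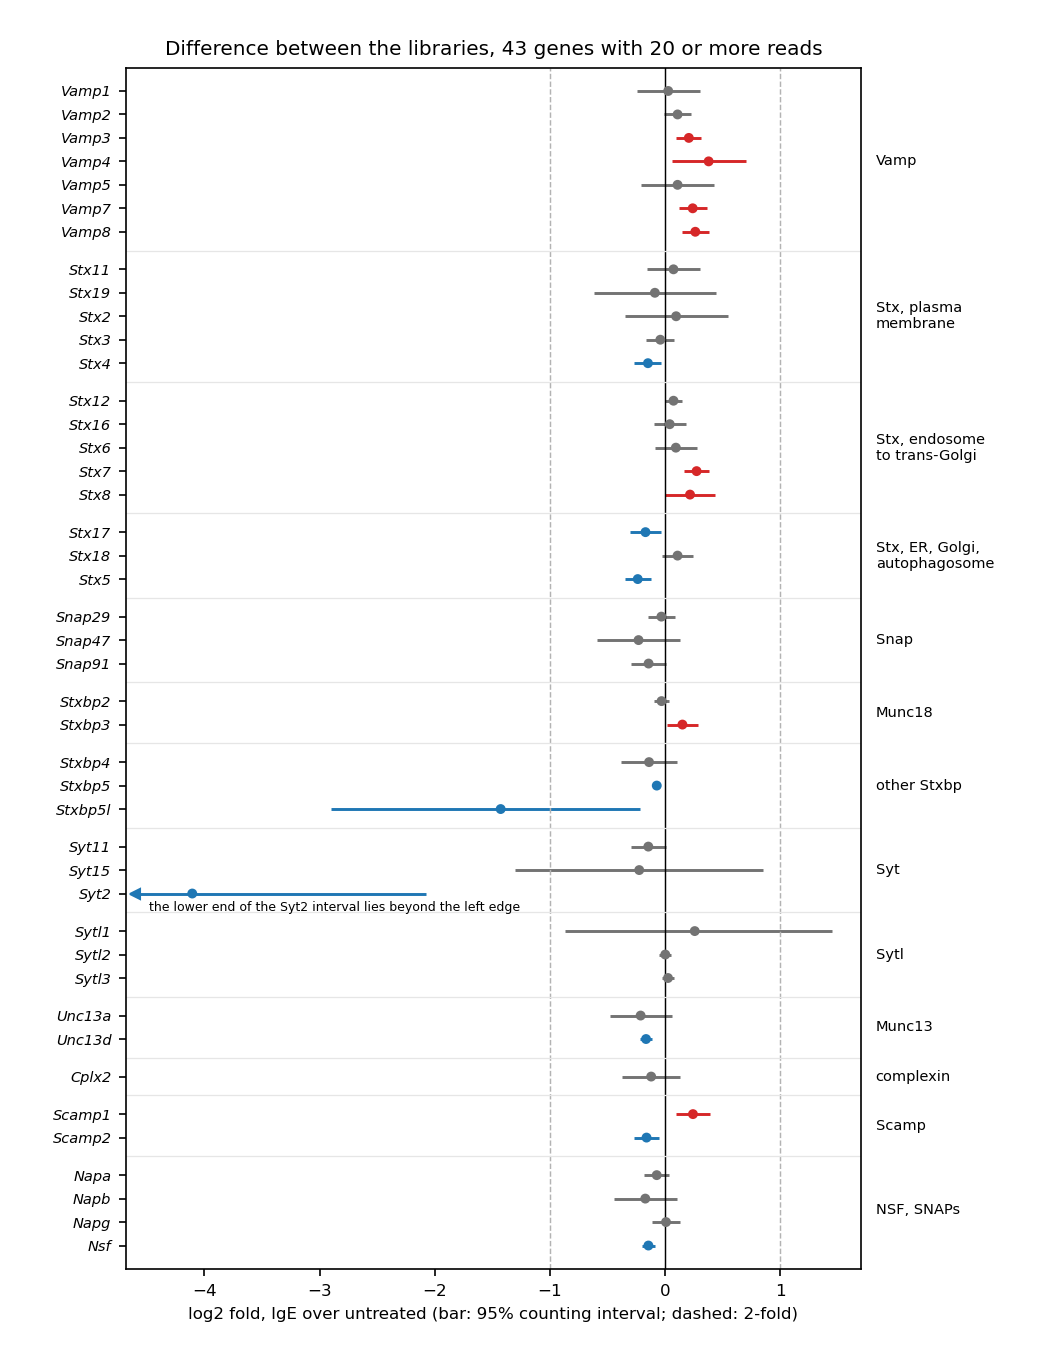
The log2 fold (IgE over untreated) of 43 of the 44 genes with 20 or more reads, grouped by role, with 95% counting intervals. Red marks the 8 intervals above 0 and blue the 9 below 0, and dashed lines mark a 2-fold difference. All VAMPs and all endosomal syntaxins lie to the right of 0, Stx4, Stx5 and Stx17 to the left, and only Syt2 and Stxbp5l pass the 2-fold line on the left.

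The counted genes named Snap were all slightly below 0, and each interval held 0. Snap29, which pairs with Stx17 in autophagosome fusion, had 1051 and 1282 reads (log2 fold -0.03, interval -0.15 to 0.09). Snap47 had 128 and 136 reads (-0.23, -0.59 to 0.13). Snap91, which shares the name but encodes a clathrin assembly protein and no SNARE, had 688 and 777 (-0.14, -0.29 to 0.01).

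Munc18 proteins guard the syntaxins, and their reported genes differed little between the libraries. Stxbp2, or Munc18-2, the family member of mast cell and cytotoxic granule release, had 3674 and 4486 reads, or 175.1 and 171.3 CPM (log2 fold -0.03, interval -0.09 to 0.03). The interval leaves room for a difference of at most 0.09 on the log2 scale from counting error. Stxbp3, or Munc18-3, the partner of Stx4, was somewhat higher with IgE, with 809 and 1120 reads (38.6 and 42.8 CPM, 0.15, 0.02 to 0.28). RefSeq also lists a pseudogene of Stxbp3, and reads from near-identical copies cannot be separated in these counts.

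The tomosyns carry a VAMP-like SNARE motif and hold syntaxins in complexes that do not fuse. Stxbp5, or tomosyn-1, took 21634 of the 71203 reads of the whole set in the untreated library and 25666 of 86752 in the IgE library, more than any other member, a number that also depends on transcript length. Its level was 1031 and 980.2 CPM, with a log2 fold of -0.07 and, at this depth, a narrow interval of -0.10 to -0.05. Stxbp5l, or tomosyn-2, had only 18 and 8 reads, or 0.858 and 0.306 CPM. Its log2 fold was -1.43 (interval -2.90 to -0.22), and -1.05 with a prior of 5 counts in place of 0.5. Stxbp4, or Synip, which binds Stx4, had 272 and 308 reads (-0.14, -0.38 to 0.10).

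Of the synaptotagmins, the family of calcium sensors with paired C2 domains, 3 of 17 RefSeq symbols were counted, and all 3 had log2 folds below 0. With 5921 of all 12102 genes also below 0, 3 of 3 is read only as a description. Syt2, a fast calcium sensor of synapses that is also known from RBL cells, had 21 reads in the untreated and 1 read in the IgE library, or 1.00 and 0.0382 CPM. The ratio of these levels was 26.2 (counting interval 4.21 to 1084), so its size is poorly fixed. The log2 fold was -4.10, and it was -2.28 with a prior of 5 counts. The single read lies under the 3 reads (0.115 CPM) taken as the detection floor of the IgE library. In the authors' deposited table Syt2 had an adjusted p of 0.00857 and was the only member under 0.05, and Stxbp5l had an adjusted p of 0.767. The authors' deposited table gave 43 of the 45 members an adjusted p of 1, and its list of 451 selected names held 2 members, Syt2 and Stxbp5l. The 451 selected names stand beside 14913 names in the whole table, so 2 of 45 members is read only as a description. The authors' p-values rest on 1 library per condition.

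Syt11, a synaptotagmin that does not bind calcium, was the synaptotagmin with the most reads, 682 and 769 (log2 fold -0.15, interval -0.30 to 0.00). Syt15 had 16 and 17 reads (-0.23, -1.31 to 0.85). The interval of Syt15 holds 0 and also holds a 2-fold lower level, so only a larger difference would have stood out at this depth.

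**Figure D3:**
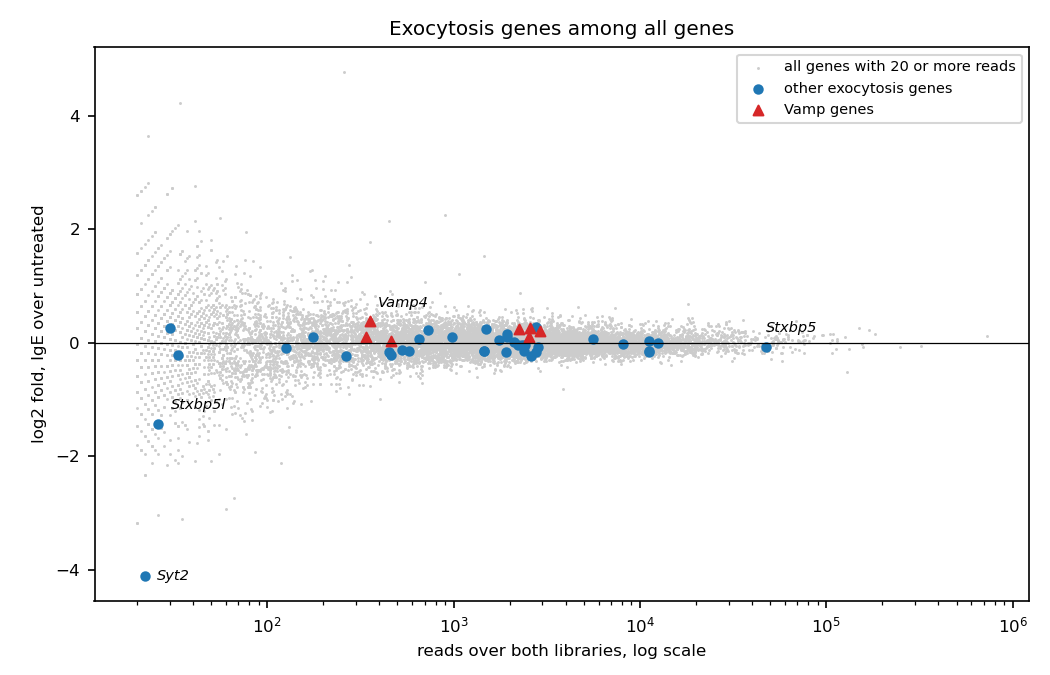
The log2 fold (IgE over untreated) against the reads over both libraries (log scale) for all 12102 genes with 20 or more reads (grey), with the VAMPs as red triangles and the other exocytosis genes as blue circles. Syt2 and Stxbp5l lie among genes with few reads, where folds spread widely, and members with more reads lie within the band of all genes.

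The synaptotagmin-like proteins, which tether granules through Rab27, showed no difference beyond counting error. Sytl2 had 5564 and 6948 reads, or 265.1 and 265.3 CPM (log2 fold 0.00, interval -0.05 to 0.05). Sytl3 had 4935 and 6264, or 235.2 and 239.2 CPM (0.02, -0.03 to 0.08). Sytl1 had only 12 and 18 reads (0.26, -0.87 to 1.45). For Sytl2 and Sytl3 a difference of 0.1 on the log2 scale would have exceeded counting error, while for Sytl1 a 2-fold difference would not stand out.

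The Munc13 genes were both below 0. Unc13d, or Munc13-4, the priming factor of granule release in mast cells and cytotoxic lymphocytes, had 5311 and 5907 reads, or 253.1 and 225.6 CPM. Its log2 fold was -0.17 (interval -0.22 to -0.11), a 1.12-fold lower level with IgE. Unc13a, or Munc13-1, the neuronal form, had 223 and 240 reads (-0.21, -0.48 to 0.06). Cplx2, the complexin known from mast cells, had 245 and 281 (-0.12, -0.37 to 0.13).

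The secretory carrier membrane proteins, which recycle vesicle membrane, lay in opposite directions. Scamp1 had 604 and 891 reads, or 28.8 and 34.0 CPM (log2 fold 0.24, interval 0.09 to 0.39). Scamp2 had 1308 and 1459, or 62.3 and 55.7 CPM (-0.16, -0.27 to -0.05), and the intervals of Scamp1 and Scamp2 did not overlap. Scamp4 had 4 reads without and 0 with IgE, too few for a ratio, and a count of 0 allows up to 0.115 CPM.

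The disassembly genes were level or slightly lower. Nsf, the ATPase, had 5225 and 5895 reads, or 249.0 and 225.1 CPM (log2 fold -0.15, interval -0.20 to -0.09). Napa, or alpha-SNAP, its main adaptor, had 1300 and 1542 reads (-0.07, -0.18 to 0.03). Napb, the brain form of the adaptor, had 215 and 238 (-0.17, -0.44 to 0.10), and Napg, or gamma-SNAP, 940 and 1179 (0.01, -0.12 to 0.13). The sign of Napg, like that of Sytl2, reversed with plain library totals as the scaling (-0.00 for Napg, -0.01 for Sytl2).

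Since these proteins act in complexes, each often with several partners, the read ratio of known partners was compared between the libraries. Such a ratio does not depend on how the libraries are scaled. The 16 pairs were chosen from known interactions after the values had been seen, several share a gene, and each ratio restates the folds of its 2 genes against each other. The intervals are exact 95% counting intervals with no replicate error. For 7 pairs the ratio was higher in the IgE library beyond counting error, for 1 it was lower, and for 8 the interval held 0. Over all 946 pairs of the 44 members 35.7% had an interval that excluded 0, so 8 of 16 is read only as a description.

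Vamp8 had 0.918 reads per read of Stx4 without and 1.22 with IgE, a log2 change of 0.41 (interval 0.25 to 0.58). Against Stx3 the change of Vamp8 was 0.30 (0.14 to 0.47), and against Stx17 it was 0.43 (0.26 to 0.61). With Stx7, its late endosomal partner, Vamp8 kept its ratio (0.932 and 0.925, change -0.01, interval -0.17 to 0.15). Stx3 and Stx4 were the plasma membrane syntaxins set against a VAMP. The others, Stx2, Stx11 and Stx19, were not.

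The next ratios share the Stx4 count, whose own log2 fold was -0.15, and so are not independent of each other. Relative to Stx4, Vamp7 differed by 0.39 (0.22 to 0.56), Vamp3 by 0.35 (0.20 to 0.52) and Vamp2 by 0.26 (0.09 to 0.42), and the Munc18 protein Stxbp3 by 0.30 (0.12 to 0.48). Stxbp2 kept its ratio to Stx3 (3.66 and 3.69, change 0.01, interval -0.13 to 0.15), and to Stx11 the change was -0.10 (-0.34 to 0.13). Stx7 to Stx8 differed by 0.06 (-0.19 to 0.30), Nsf to Napa by -0.07 (-0.19 to 0.05) and Snap29 to Stx17 by 0.14 (-0.04 to 0.32). Rab27a, the GTPase that recruits Munc13-4 and the synaptotagmin-like proteins, had 12623 and 15563 reads. Relative to it, Unc13d was lower with IgE by a log2 change of -0.15 (-0.21 to -0.08), while Sytl2 (0.02, -0.04 to 0.08) and Sytl3 (0.04, -0.02 to 0.11) were level. Rab27b, also counted, had 2209 and 2483 reads and a log2 fold of its own of -0.15 (-0.23 to -0.07). No ratio to Rab27b was taken, but the log2 fold of Unc13d, -0.17 (-0.22 to -0.11), was close to that of Rab27b, and the intervals overlapped. The lower level of Unc13d thus holds relative to Rab27a, and the fold of Rab27b was nearly as low as its own.

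**Figure D4:**
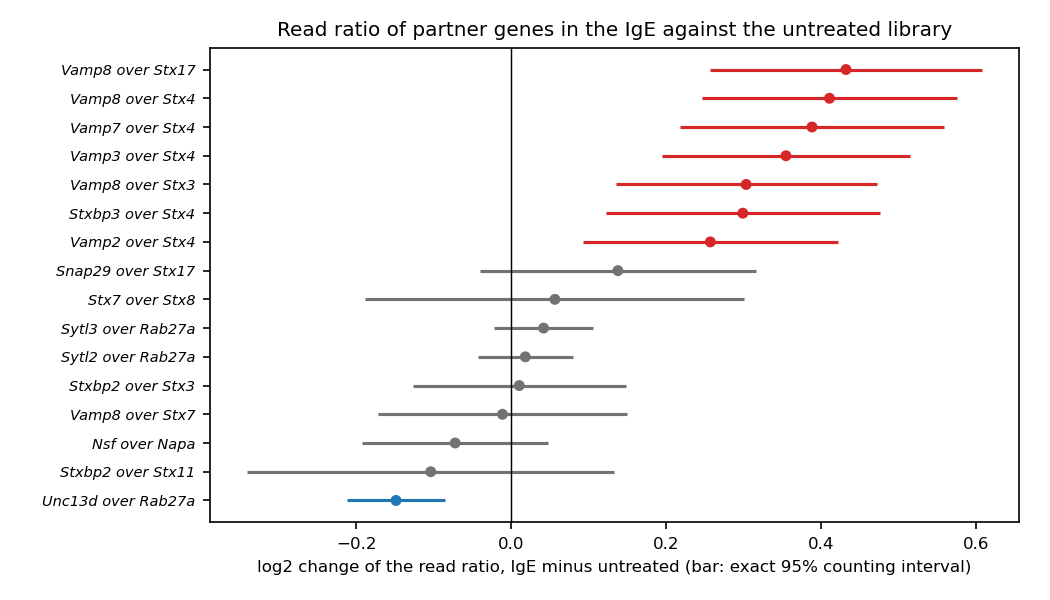
Log2 change, IgE minus untreated, of the read ratio within 16 partner pairs, with exact 95% counting intervals. The pairs of a VAMP with Stx3, Stx4 or Stx17 and the pair Stxbp3 and Stx4 lie above 0 (red), Unc13d over Rab27a lies below (blue), and the other 8 intervals hold 0 (grey).

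The promoters of 4 members are shown: those of Syt2 and Stxbp5l, the genes at least 2-fold lower with IgE, of Vamp4, the gene with the highest fold, and of Vamp8, the next highest VAMP. Each line gives the 250 bases before the start that the RefSeq promoter table of build GRCr8 lists for the gene, 5′ to 3′ on the gene's strand, with every CG dinucleotide in capitals. The read counts were made on build rn6, so these positions are not those of the count table. The Syt2 window is chr13:48736872-48737121 (plus strand), that of Stxbp5l chr11:76839852-76840101 (plus), that of Vamp8 chr4:106005643-106005892 (minus) and that of Vamp4 chr13:77453070-77453319 (plus).
Syt2: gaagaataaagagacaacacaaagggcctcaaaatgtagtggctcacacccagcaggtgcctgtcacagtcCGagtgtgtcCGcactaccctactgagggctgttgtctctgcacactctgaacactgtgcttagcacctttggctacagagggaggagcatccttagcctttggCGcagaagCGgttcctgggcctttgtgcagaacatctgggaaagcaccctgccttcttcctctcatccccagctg
Stxbp5l: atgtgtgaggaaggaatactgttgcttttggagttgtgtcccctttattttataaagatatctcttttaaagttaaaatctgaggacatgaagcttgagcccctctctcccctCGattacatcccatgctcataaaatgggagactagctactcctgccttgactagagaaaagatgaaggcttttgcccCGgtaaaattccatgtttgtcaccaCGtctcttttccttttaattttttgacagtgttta
Vamp8: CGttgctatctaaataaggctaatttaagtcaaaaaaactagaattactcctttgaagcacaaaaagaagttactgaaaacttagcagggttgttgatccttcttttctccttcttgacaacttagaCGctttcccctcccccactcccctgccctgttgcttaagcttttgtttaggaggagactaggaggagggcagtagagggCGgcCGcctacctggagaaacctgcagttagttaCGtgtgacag
Vamp4: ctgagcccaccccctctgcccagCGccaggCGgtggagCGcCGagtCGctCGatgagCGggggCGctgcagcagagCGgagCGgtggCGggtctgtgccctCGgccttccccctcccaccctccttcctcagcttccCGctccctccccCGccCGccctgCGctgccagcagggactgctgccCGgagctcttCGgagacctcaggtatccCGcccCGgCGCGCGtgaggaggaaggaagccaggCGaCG

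The 4 windows differ in their CG number. Syt2 holds 4, Stxbp5l 3 and Vamp8 5, while Vamp4 holds 25. The low numbers of Syt2, Stxbp5l and Vamp8 lie near the median of 5 over all windows of the table.

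Promoter windows were found for 40 members (41 windows, since Sytl1 has 2 entries), and they were rich in CG. The median was 15 CG per window, against 5 over all 33469 windows. The 27 windows of members with 500 or more reads had a median of 17, and the 6 windows of members with under 100 reads a median of 3.5. Stx3 had the most, 34, and Stx19 had 0. The 33469 windows belong to 27457 genes, more than the 14913 names counted here, and were not limited to expressed genes. Whether the contrast in CG holds against genes read at a like level was not tested. These are descriptions of the windows, and no factor's binding was measured.

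Short motifs were searched on both strands of the same windows. The share over all windows again includes genes not counted here. GGGCGG, the GC box, which contains a CG and so overlaps that count, stood in 27 of 41 member windows (65.9%), against 30.5% of all windows. CACGTG, the E-box core, stood in 6 (14.6%, against 5.59%), namely those of Napa, Nsf, Scamp1, Snap29, Stx6 and Stxbp2. TGACGTCA, the cAMP response element, stood in 2 (4.88%, against 1.59%), those of Napa and Vamp1. TATAAA stood in 4 (9.76%, against 12.9%), among them the window of Stxbp5l. It was searched at any position in the window, so a hit need not be a promoter box. The motif AGATAA, read by the factor family that includes Gata2, stood in 1 (2.44%, against 10.3%), that of Sytl3. The AP-1 motif TGACTCA stood in 0 of the 41 (against 4.05%). Like GGGCGG, the motifs CACGTG and TGACGTCA contain a CG. Member windows had a median GC content of 60.8%, against 51.2% over all windows. Whether any of these shares differs beyond base content was not tested. The genes with CACGTG lay on both sides of 0, with Scamp1 at 0.24 and Nsf at -0.15.

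Genes of the pathway outside the name rule were read from fixed lists. Of 73 listed genes 52 were counted, Caps among them only as a synonym, and 48 had 20 or more reads. Of these, 0 were at least 2-fold apart, 23 were above and 25 below 0, and the median log2 fold was 0.00. The interval lay above 0 for 8 of the 48, against 20% of all genes, and below 0 for 8, against 18.6%. Over all genes, 1.33% lay at least 2-fold above and 1.3% at least 2-fold below the untreated library.

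Other SNAREs, mostly of the Golgi and endosomes, had the highest median of these lists, 0.11, with 9 of 11 above 0, against 51.1% of all genes. Vti1b, an endosomal SNARE that pairs with Stx7, Stx8 and Vamp8, was the highest, with 995 and 1490 reads (log2 fold 0.26, interval 0.15 to 0.38). Its paralog Vti1a was the lowest, with 749 and 839 reads (-0.16, -0.30 to -0.01). All 4 SNAREs of the late endosomal complex (Stx7, Stx8, Vti1b and Vamp8) thus had log2 folds between 0.22 and 0.27, a grouping made after the values were seen.

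The 9 exocyst subunits, which tether vesicles to the plasma membrane, ranged from -0.09 (Exoc2) to 0.10 (Exoc6), with a median of -0.02. The 11 genes of the list of further Munc18-type proteins and tethers ranged from -0.14 (Vipas39) to 0.10 (Scfd2), also with a median of -0.02. Rab3 and Rab27 genes with their effectors (6 counted of 11) ranged from -0.17 (Rab3a) to 0.06 (Rab37).

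Among SNARE regulators (7 counted of 10), Snapin, a SNAP-25-binding protein that also serves lysosome transport, was the highest, with 745 and 1189 reads (log2 fold 0.35, interval 0.22 to 0.49). Txlna, a syntaxin-binding taxilin, was the lowest at -0.08. In the list of extended synaptotagmins, ferlins, Doc2 and priming factors, 8 of 20 genes were counted and 5 had 20 or more reads. Caps, matched only as a synonym of a listed gene, is among the 8. It had 0 reads in both libraries and may stand for another gene. Erc2, an active zone scaffold, was the lowest, with 82 and 53 reads (-0.94, -1.48 to -0.43), and Esyt2, a membrane contact site protein, the highest at 0.00.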

How the data were processed

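RNA was measured by poly(A)-selected RNA-seq in 2 libraries, grouped by the treatment label. The deposited table holds the authors' raw counts for each gene, beside which stand a log2 fold change, a p-value and an adjusted p-value, per the file headers. Build rn6 and the tools DESeq2 1.18.1, HISAT2 2.1.0 and fastp 0.23.0 are listed in the submitters' processing notes. How reads were counted, with or without strand, is not given in the sources used, so near-identical or overlapping genes are uncertain.

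Of 16990 deposited rows, 2077 repeated a name with identical values and were dropped. CPM and log2 folds were computed with TMM scaling from edgeR 4.0.16 (R 4.3.3) and a prior of 0.5 counts, for genes that reached 20 reads in all. Intervals are exact Clopper-Pearson 95% intervals of the read ratio, and those of partner ratios exact conditional ones (SciPy 1.17.1). With 1 library per group no test was made, and a 2-fold rule of size was used. The detection floor was 3 reads, or 0.143 CPM untreated and 0.115 CPM with IgE. The calculation was tested on simulated counts. Alternatives were library totals, DESeq2 1.42.0 size factors, a prior of 5, a minimum of 0 or 100 reads, a 1.5-fold rule and a median without its most extreme member.

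Members and lists were chosen with earlier results of these data known. Full values are given for genes with a textbook role in mast cells, for the most-read, highest and lowest member of each role, for members at least 2-fold apart and for the 5 highest and 5 lowest folds. Other values were added after they were seen. A member counted in the totals is not reported here by name.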

Additional observations from a re-analysis of the deposited data

How the results depend on the processing

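The count of exocytosis genes at least 2-fold lower with IgE was 2 under library totals, DESeq2 size factors, a prior of 5 counts and a 1.5-fold rule, 3 with no minimum of reads, where Scamp4 joins, and 0 with a minimum of 100 reads, which leaves out Syt2 and Stxbp5l by construction. The count at least 2-fold higher was 0 under each of these. The median log2 fold of the members ran from -0.04 with library totals to -0.02 with a minimum of 100 reads. Over all genes, the 318 at least 2-fold apart became 203 with a prior of 5 counts, 1730 with no minimum, 36 with a minimum of 100 reads and 870 with a 1.5-fold rule, all of which act on genes with few reads or on the threshold by construction. For 35 named genes, 105 folds were recomputed under other scalings and priors and 105 fell inside the counting interval. This outcome had little room to fail. The scalings moved each fold by little, and the larger prior mainly moved genes with few reads, whose intervals are wide. The VAMPs (7 of 7) and the endosomal syntaxins (5 of 5) were above 0 under all 3 scalings. The scalings differ so little that these signs had little room to change. Vamp1, the lowest of these genes, had log2 folds of 0.026 with TMM, 0.017 with library totals and 0.024 with DESeq2 size factors. With library totals, intervals of 7 members lay above and 11 below 0, against 8 and 9. With DESeq2 size factors there were 7 and 9. No paired analysis was possible because only 1 library was made for each condition, and for the same reason no library could be left out. Depth limits Syt2, Stxbp5l, Syt15, Sytl1 and Scamp4, each with under 40 reads.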
